A study of Homo sapiens with 10 samples.

Results

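The genes described here are 40 genes that dividing cells use to copy their DNA and to separate their chromosomes, read as a marker of proliferation after repression of the HS2 enhancer in K562 cells. They were chosen by name, with no measured value in the rule. The 18 S phase genes run from the replicative helicase (MCM2 to MCM7) to the G1/S cyclins and the transcription factor E2F1, and the 22 mitotic genes run from MKI67 and TOP2A to kinases, kinesins and kinetochore proteins. Of the 40, 39 were among the 20535 genes listed for every library and 38 had a mean of at least 1 TPM (length-corrected transcripts, as a share of a fixed total), the limit for testing, as did 10127 genes in all. UHRF1 was not analysed here, and UBE2C was under the limit.

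K562 is a human erythroleukemia line with active β-like globin genes, and HS2 is an enhancer of the β-globin locus control region. RNA-seq was read in 10 libraries, 2 for each of 5 groups. The control group carried a nontargeting sgRNA (sgGal4), and in the remaining groups the full set of 4 HS2 sgRNAs was combined with dCas9 fused to the KRAB repressor domain (K), with dCas9 fused to the histone demethylase LSD1 (L), with enCRISPRi-LK (dCas9-LSD1 and MCP-KRAB) or with enCRISPRi-KL (dCas9-KRAB and MCP-LSD1). The titles of the control libraries name no effector. In comparisons with sgGal4, the presence of an effector therefore cannot be told apart from the targeting of HS2. By the study's methods the lines were made by lentiviral transduction, sorted for fluorescent markers and induced with doxycycline. By these methods each line was a transduced pool of one cell line. The legend of the study's RNA-seq figure, however, sets the sgHS2 cells against nontransduced cells, whereas the control titles name sgGal4. The titles are followed here, and an effect of transduction itself was not tested. The study calls the replicates experiments, and the labels do not say that the libraries of a group came from separate cultures, so the p-values measure the spread between these libraries, which may be technical.

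Before replication, MCM2 to MCM7 are loaded at origins by CDC6 and CDT1, and CDC45 and the GINS complex then turn the loaded ring into an active helicase. Many of these genes are transcribed by E2F factors once cyclin D and cyclin E kinases have inactivated the RB proteins. Genes of G2 and mitosis are held down by the DREAM complex and switched on by B-MYB and FOXM1, largely through the cell cycle homology region (CHR) of their promoters. The CDK inhibitor p21, encoded by CDKN1A, restrains both steps.

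The promoter letters of the genes, which the rule had not used, were read in RefSeq windows. Such windows of 300 bases, 250 before to 50 after the annotated start (GRCh38.p14), were found for 32 of the 40 genes, 15 of the S phase and 17 of the mitotic list. Each motif was searched on both strands. An E2F-type motif (TTCCCGC or TTGGCGC) was present in 11 of the 15 S phase windows (73.3%) and in 2 of the 17 mitotic windows (11.8%), compared with 15.7% of the 7740 windows of tested genes and 9.33% of all 27305 windows. The CHR letters (TTTGAA or TTCGAA) showed the opposite pattern, in 13 of 17 mitotic windows (76.5%) and 1 of 15 S phase windows (6.67%), against 10.8% of the windows of tested genes and 16.6% of all windows. A CCAAT box was found in 15 mitotic and 11 S phase windows, against 37.2% of the windows of tested genes and 35.7% of all. It can share letters with an E2F-type motif (ATTGG with TTGGCGC), which occurred in 1 member window. CHR and CCAAT letters stood together in 12 of the 17 mitotic windows (70.6%) and in 4.72% of the windows of tested genes. Windows covered 77.3% of the mitotic list, under the 80% set for such a count, so the count describes these 17 windows and is void for the whole list.

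The same letters were counted in related genes outside both lists. In 38 windows of other replication machinery, 18 held an E2F-type motif and 2 the CHR letters. In 61 windows of other mitotic genes, 16 held an E2F-type motif and 39 the CHR letters. Stretches of 180 bases, from 150 before to 30 after the start, are shown for 2 genes of each list, to let these letters be read in the sequence. The first pair, CDC6 (chr17:40287729-40287908, plus strand) and PCNA (chr20:5126593-5126772, minus strand), has the E2F-type letters in capitals (in PCNA as the reverse complement).
CDC6: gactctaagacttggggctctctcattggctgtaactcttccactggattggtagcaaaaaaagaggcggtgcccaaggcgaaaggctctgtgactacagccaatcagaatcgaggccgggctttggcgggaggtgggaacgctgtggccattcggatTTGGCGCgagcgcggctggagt
PCNA: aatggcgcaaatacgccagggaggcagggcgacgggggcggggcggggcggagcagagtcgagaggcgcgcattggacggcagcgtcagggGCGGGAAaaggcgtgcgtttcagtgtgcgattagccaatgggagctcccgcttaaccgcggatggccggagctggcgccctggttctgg
The second pair, BUB1 (chr2:110678034-110678213, minus strand) and PLK1 (chr16:23678739-23678918, plus strand), has the CHR and CCAAT letters of either strand in capitals. In BUB1 the CHR letters begin at base 2 after the start, with CCAAT letters 79 and 54 bases before it. In PLK1 the CHR letters begin 29 bases and the CCAAT letters 73 bases before the start.
BUB1: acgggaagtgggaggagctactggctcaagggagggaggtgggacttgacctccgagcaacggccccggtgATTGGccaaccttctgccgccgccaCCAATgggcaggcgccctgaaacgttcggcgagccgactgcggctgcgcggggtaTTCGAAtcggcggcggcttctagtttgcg
PLK1: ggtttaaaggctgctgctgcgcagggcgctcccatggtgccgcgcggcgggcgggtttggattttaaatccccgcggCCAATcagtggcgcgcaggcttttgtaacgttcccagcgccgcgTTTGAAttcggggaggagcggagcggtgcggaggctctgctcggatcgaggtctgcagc
A match of letters is a description and not a bound site, and the S phase windows of MCM2, CDC45, RRM2 and CCNE1 held none of the E2F-type letters searched.

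The labels were read against the effector genes before any comparison. The summed level of the β-like globin genes, the targets of HS2, was 2436 ± 32.4 TPM (SD, n = 2) with sgGal4, 1543 ± 42.1 in K, 1667 ± 56.5 in L, 989.8 ± 35.1 in LK and 667 ± 26.8 in KL. KDM1A, which encodes LSD1, was at 94.4 TPM in L and between 26.7 and 29.4 TPM on average in the other groups. ZNF10, the source gene of the KRAB domain, was at 1.43 TPM with sgGal4, 2.49 in K, 132 in L, 34.2 in LK and 362 in KL. These levels do not follow the labelled constructs in every group, so K, L, LK and KL mean below the libraries labelled as such. The 13 mitochondrial genes took between 39.9% and 53.6% of the listed TPM, with the highest share in sgGal4 replicate 1. Of 14 erythroid markers, globins included, 13 were tested and GATA1 was listed at 0 in all 10 libraries. The study mapped GATA1 binding in K562 cells by ChIP-seq, and a 0 in TPM without counts can be a failed estimate. No level was therefore read for GATA1. The summed TPM of the 14 markers was 3938 and 4011 in the 2 libraries with sgGal4, 3408 and 3522 in K, 4137 and 5028 in L, 2194 and 2240 in LK and 2659 and 2810 in KL. In the 4 sgHS2 groups together 2 of the 13 tested markers were called higher and 2 lower than with sgGal4, beside 3.26% of all tested genes in either direction. In dual against single effectors 4 were called lower, where 0.0889% of all tested genes were called. There 1 of the 13 was above 0, beside 51.3% of all tested genes. The markers include HBE1, HBG1 and HBG2, which are among the targets of HS2. Of 5 listed T cell markers, CD3E, CD2 and LCK were at 0 in every library, whereas CD3D was at 26.1 and 33.6 TPM with sgGal4 and between 1.65 and 21.3 TPM in the other 8 libraries. Summed B cell markers reached at most 0.49 TPM, and the monocyte markers CSF1R, FCGR1A and MPO were at 0. The part of these differences in the results below was not tested. In a bulk sample, fewer cells in a phase and less RNA per cell cannot be told apart.

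Both lists were abundant in every library. The median gene of the S phase list stood at the 85.5th percentile of all tested genes by mean TPM, and that of the mitotic list at the 86.6th. Each library summed to between 1219 and 1505 TPM over the S phase genes and between 1251 and 1539 TPM over the mitotic genes. TPM is corrected for transcript length, so these levels can be set side by side between genes.

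**Figure D1:**
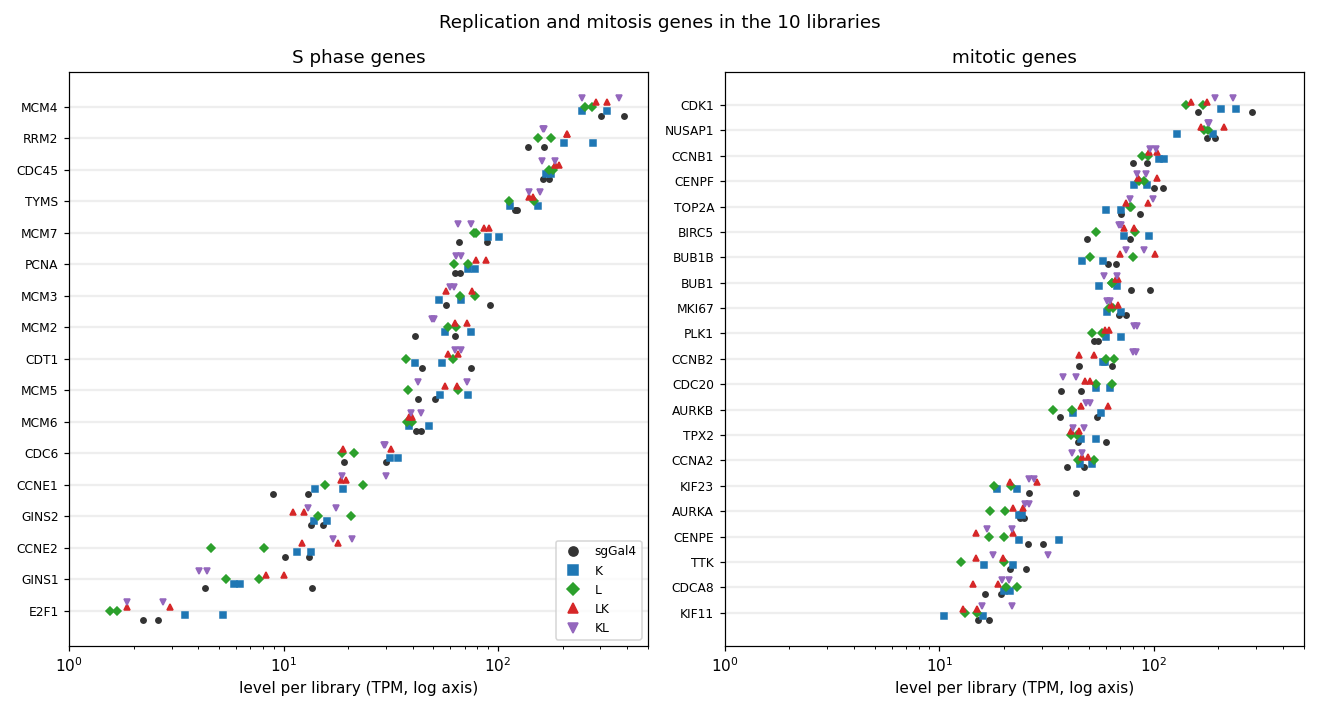
Level in TPM (log axis) of the 38 tested genes in each of the 10 libraries, ordered by mean level, with S phase genes on the left and mitotic genes on the right and 2 points of the same colour and shape for each group. CDC45 has the narrowest spread and CCNE2 the widest, and the 2 sgGal4 points of CCNE1 lie below, and those of BUB1 above, all others.

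Among the origin licensing genes, MCM4, a subunit of the helicase ring, had the highest mean of the 39 listed genes, 300.7 TPM. Its libraries were at 389 and 301 TPM with sgGal4, 322 and 246 in K, 273 and 254 in L, 287 and 322 in LK, and 365 and 247 in KL. Both L libraries were below both control libraries, as for 20.6% of all tested genes, while K, LK and KL overlapped the controls. The difference of L from sgGal4 was −0.38 on the log2(TPM + 1) scale (adjusted p = 0.447 by limma). The other ring subunits had means between 41.0 TPM (MCM6) and 81.8 TPM (MCM7). MCM6 varied little, from 37.6 to 47.8 TPM. Of the loaders, CDC6 was between 18.6 and 34.1 TPM and CDT1 was between 37.3 and 74.6 TPM.

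CDC45, which completes the active helicase, was the steadiest member. It was at 173 and 163 TPM with sgGal4, 167 and 176 in K, 172 and 179.8 in L, 184 and 193 in LK, and 161 and 184 in KL, a highest level 1.20 times the lowest. PCNA, the sliding clamp of the polymerases, ranged from 62.7 to 87.5 TPM. GINS1, a subunit of the GINS complex, was low and uneven at 4.30 and 13.6 TPM with sgGal4, 6.23 and 5.89 in K, 7.65 and 5.39 in L, 8.30 and 9.99 in LK, and 4.02 and 4.40 in KL. Its largest gap was between the 2 control libraries.

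RRM2, the inducible subunit of ribonucleotide reductase, supplies deoxynucleotides in S phase. It was at 138 and 163 TPM with sgGal4, 276 and 202 in K, 176 and 154 in L, 210.4 and 209 in LK, and 162 and 165 in KL. Both K and both LK libraries were above both control libraries, while L and KL overlapped them. The difference of K from sgGal4 was 0.65 on the log2(TPM + 1) scale (SE 0.17), with a Benjamini-Hochberg adjusted p of 0.0694 by limma, and that of LK was 0.48 (adjusted p = 0.200). With only genes of a mean of at least 10 TPM in the fit, the adjusted p in K was 0.0406. TYMS, the thymidylate synthase, ranged from 112 to 157 TPM. Both LK and both KL libraries were above both control libraries, while K and L overlapped them. Such a separation from the controls was found for 24.7% of all tested genes in LK and 24.3% in KL. The TYMS differences were 0.23 in LK (adjusted p = 0.626 by limma) and 0.29 in KL (adjusted p = 0.521).

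The cyclins that start S phase were the most variable members. CCNE1 (cyclin E1, chr19:30302898-30315219 in hg19) was at 13.04 and 8.92 TPM with sgGal4, 18.8 and 14.03 in K, 15.5 and 23.5 in L, 18.5 and 19.5 in LK, and 18.7 and 30.2 in KL. All 8 sgHS2 libraries were above both control libraries. The 4 groups as one arm differed from sgGal4 by 0.79 (SE 0.25, 95% interval 0.24 to 1.33, adjusted p = 0.119), and KL alone by 1.07 (SE 0.32, adjusted p = 0.123). CCNE2 (cyclin E2) had the widest fold range of any tested member, 4.58 times from 4.56 TPM in L to 20.9 TPM in KL. E2F1 had the lowest mean of the S phase list, at 2.21 and 2.59 TPM with sgGal4, 3.48 and 5.19 in K, 1.55 and 1.67 in L, 1.85 and 2.96 in LK, and 2.75 and 1.85 in KL.

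Among the mitotic genes, MKI67, which encodes the proliferation antigen Ki-67, ranged only from 60.6 to 74.5 TPM. Its mean was 71.8 ± 3.83 TPM (SD, n = 2) with sgGal4, 65.7 ± 7.18 in K, 63.0 ± 1.99 in L, 66.0 ± 3.53 in LK and 61.6 ± 1.31 in KL. The 4 sgHS2 groups differed from sgGal4 by −0.16 (95% interval −0.47 to 0.14). TOP2A, the topoisomerase that untangles sister chromatids, ranged from 59.8 to 99.1 TPM, with a difference of −0.01 (95% interval −0.34 to 0.33).

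CDK1, the kinase that drives entry into mitosis, had the highest mitotic mean, 196 TPM. It was at 161 and 287 TPM with sgGal4, 206 and 241 in K, 141 and 169.5 in L, 149 and 178 in LK, and 235 and 194 in KL, and the control libraries spanned all the others but 2. Cyclin B1 (CCNB1) was at 80.0 and 93.5 TPM with sgGal4, 111 and 105 in K, 94.2 and 88.1 in L, 104 and 95.02 in LK, and 103 and 95.7 in KL. Cyclin B2 (CCNB2) was at 81.5 ± 1.54 TPM in KL, 54.6 ± 13.6 with sgGal4 and 49.0 ± 5.65 in LK. The difference of LK from KL was −0.73 (SE 0.21, adjusted p = 0.208).

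Of the partners of the anaphase-promoting complex, CDC20, its activator, ranged from 37.1 to 64.1 TPM, whereas UBE2C, its ubiquitin-conjugating enzyme, was listed at 0 in 6 libraries and at 1.70 TPM in sgGal4 replicate 2, 0.59 in L replicate 1, 0.73 in LK replicate 2 and 1.44 in KL replicate 2. A 0 in TPM without counts can be a failed estimate, so no level was read for UBE2C. CDC20 was lower in all 4 dual-effector libraries (37.9 to 50.4 TPM) than in all 4 single-effector libraries (53.7 to 64.1 TPM), with a difference of −0.38 (SE 0.15, adjusted p = 0.601).

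BUB1, a kinase of the spindle checkpoint (chr2:111395105-111435640 in hg19), was at 78.2 and 95.8 TPM with sgGal4, 67.4 and 55.4 in K, 64.1 and 64.3 in L, 67.9 and 66.5 in LK, and 67.5 and 58.6 in KL. All 8 sgHS2 libraries were below both control libraries. The difference was −0.43 (SE 0.15, 95% interval −0.76 to −0.11, adjusted p = 0.146). This value passed the threshold when the libraries were rescaled by median-of-ratios size factors (−0.47, adjusted p = 0.0470) or after removal of the mitochondrial genes (−0.54, adjusted p = 0.0334). PLK1, the polo-like kinase, was at 82.2 ± 1.78 TPM in KL and 53.7 ± 1.80 with sgGal4, a difference of 0.61 (SE 0.18, adjusted p = 0.122). The kinases AURKA, BUB1B and TTK had ranges of 17.3 to 26.2, 46.5 to 102 and 12.7 to 32.1 TPM.

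The chromosomal passenger complex guides chromosome attachment and cytokinesis, and its genes AURKB, BIRC5 and CDCA8 ranged from 33.9 to 61.1, 48.7 to 94.9 and 14.4 to 23.0 TPM. Of the spindle genes, NUSAP1, a microtubule-bundling protein, was the highest with 177 and 193 TPM with sgGal4, 189.95 and 128 in K, 179 and 172 in L, 212 and 166 in LK, and 181 and 179 in KL. KIF11, the kinesin that separates the spindle poles, was the lowest of the tested mitotic genes with 15.1 and 17 TPM with sgGal4, 16.1 and 10.5 in K, 13.2 and 15.0 in L, 15.0 and 12.9 in LK, and 21.95 and 15.8 in KL. KIF23, a kinesin of the central spindle, was at 26.2 and 43.5 TPM with sgGal4, 18.5 and 23.1 in K, 21.5 and 18.1 in L, 28.6 and 21.3 in LK, and 27.6 and 26.3 in KL. Its difference over the 4 sgHS2 groups was −0.55 (SE 0.22, adjusted p = 0.224), and replicate 1 of the control lay within the range of the sgHS2 libraries. CENPE, CENPF and TPX2 ranged from 14.8 to 36.1, 81.0 to 110.2 and 41.1 to 59.9 TPM.

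None of the 38 tested members was called in any of the 8 comparisons by limma at an adjusted p under 0.05. The share of all tested genes called was 1.62% for K against sgGal4, 0.869% for L, 2.00% for LK, 1.36% for KL and 3.26% for the 4 sgHS2 groups together. It was 0.0889% for dual against single effectors, 0.385% for LK against KL and 0.0395% for K against L. These shares are small beside 38 genes, so a count of 0 is near the background. The 4 comparisons with sgGal4 share the same 2 control libraries.

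The same was read at an unadjusted p under 0.05. For K against sgGal4, 2 members were higher (RRM2 and CDC20) and 2 lower (BUB1 and KIF23), 10.5% of the 38 against 15.6% of all tested genes. For L there were 2 higher (CCNE1 and CDC20) and 3 lower (CCNE2, BUB1 and KIF23), 13.2% against 12.8%. LK had 2 higher (RRM2 and CCNE1) and 0 lower, 5.26% against 14.2%, and KL had 3 higher (CCNE1, CCNB2 and PLK1) and 1 lower (BUB1), 10.5% against 14.7%. These counts lie near or under the background in each of the 4 comparisons.

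Over the 8 sgHS2 libraries against the 2 sgGal4 libraries, RRM2 and CCNE1 were higher and BUB1 and KIF23 lower at an unadjusted p under 0.05, 10.5% of the members against 17.1% of all tested genes. CCNE1 was the only member higher in every sgHS2 library than in both control libraries, 2.63% of the members against 6.53% of all tested genes. BUB1 was the only one lower in every sgHS2 library, 2.63% against 5.29%.

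**Figure D2:**
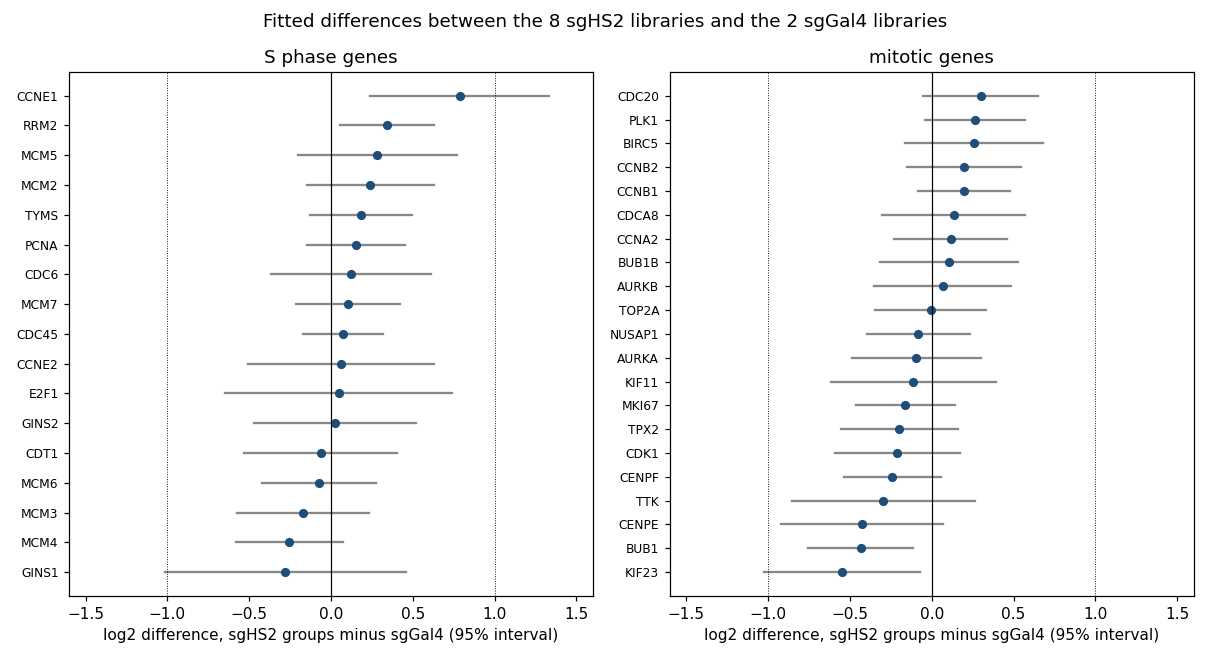
Fitted log2(TPM + 1) difference of the 8 sgHS2 libraries from the 2 sgGal4 libraries (dots, horizontal axis) with its 95% interval (lines) for each tested S phase gene (left) and mitotic gene (right), and dotted lines at a difference of 1 in either direction. Of the 38 intervals, 35 lie within the dotted lines, and those of CCNE1, GINS1 and KIF23 reach past them.

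The intervals give the size of difference that these libraries leave room for. In the comparison of all sgHS2 groups with sgGal4, the 95% interval lay within 1 on the log2 scale for 35 of the 38 members (92.1%), and for 66.1% of all tested genes. CCNE1, GINS1 and KIF23 were the exceptions. The median interval reached 0.38 to either side of the estimate for the members and 0.57 for all tested genes. For 1 group against sgGal4, between 31 and 33 of the 38 intervals lay within that bound. Both lists stood high among the tested genes, and the fit let the variance follow the level. The share of all tested genes is therefore not matched in level to the members, and narrower intervals do not show steadier genes.

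Between the 2 lists, the medians moved little and not together. Over the 4 sgHS2 groups the median difference from sgGal4 was 0.07 for the S phase genes, with 12 of 17 above 0, and −0.08 for the mitotic genes, with 9 of 21 above 0, beside 0.03 for all tested genes. The S phase median was 0.13 in K, 0.03 in L, 0.20 in LK and 0.03 in KL, and the mitotic median was −0.03, −0.18, −0.11 and 0.04. Beside them the medians of all tested genes were 0.06, 0.005, 0.03 and 0.05. These values rest on the control library used. Without sgGal4 replicate 1 the S phase median over the 4 groups was −0.06, and without sgGal4 replicate 2 it was 0.24 and the mitotic median 0.01. Removing the mitochondrial genes moved all tested genes by a median of −0.10 in this comparison, and the median of their differences became −0.06. The S phase and mitotic medians were then −0.03 and −0.18, so the S phase median crossed 0 with all tested genes and stayed above their median, and the mitotic median stayed below it.

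**Figure D3:**
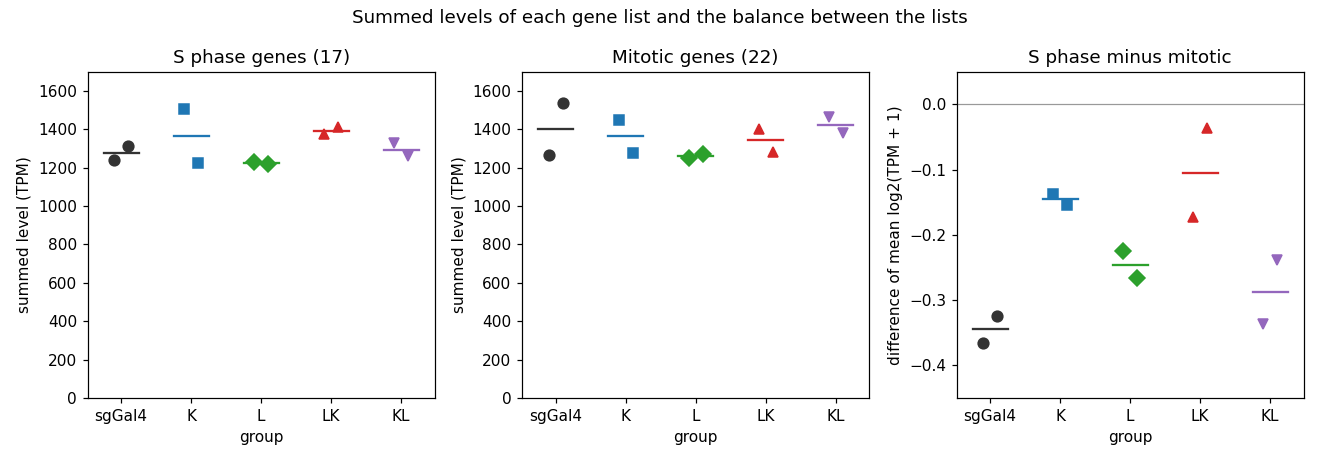
Summed TPM of the 17 listed S phase genes (left) and the 22 mitotic genes (middle), and the mean log2(TPM + 1) of the tested S phase genes minus that of the tested mitotic genes (right), for each library (points) with the group mean (line). The S phase sums are highest in K replicate 1 at 1505 TPM and the mitotic sums in sgGal4 replicate 2 at 1539 TPM, and the group mean of the balance between the lists is lowest in sgGal4, at −0.34, and highest in LK, at −0.10, with overlap of single libraries between groups.

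The balance between the lists, which a common scaling of a library hardly alters, was taken as the mean log2(TPM + 1) of the S phase genes minus that of the mitotic genes. It was −0.37 and −0.32 with sgGal4, −0.14 and −0.15 in K, −0.23 and −0.27 in L, −0.17 and −0.04 in LK, and −0.34 and −0.24 in KL. The K, L and LK libraries were all nearer to 0 than the control libraries, and 1 of the 2 KL libraries lay between the controls. In summed TPM, the S phase genes stood at 1276 ± 50.9 with sgGal4 (SD, n = 2), 1366 ± 197 in K, 1224 ± 6.75 in L, 1394 ± 22.4 in LK and 1294 ± 46.5 in KL. The mitotic genes stood at 1402 ± 193 with sgGal4, 1364 ± 119.996 in K, 1262 ± 15.7 in L, 1343 ± 86.8 in LK and 1425 ± 59.3 in KL. In the S phase sum both LK libraries were above and both L libraries below the control pair, while in the mitotic sum every library but L replicate 1 lay between the 2 control libraries.

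Dual and single effectors were close. At an unadjusted p under 0.05, CCNE2 and BUB1B were higher and CDC20 lower in LK and KL together than in K and L together, 7.89% of the members against 7.45% of all tested genes. CCNE2 had means of 16.95 TPM with dual and 9.42 TPM with single effectors, a difference of 0.85 (SE 0.24, adjusted p = 0.331), and BUB1B had means of 84.0 and 58.8 TPM (0.52, SE 0.18, adjusted p = 0.479). No member was higher in all 4 dual-effector libraries than in all 4 single-effector libraries, beside 1.55% of all tested genes, and CDC20 was the only one lower in all of them (2.63% of the members against 1.78%). The intervals lay within 1 on the log2 scale for 37 of the 38 members, with CCNE2 the exception. The median difference was 0.05 for each list and 0.007 for all tested genes.

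In LK against KL, GINS1 was higher and CCNB2 and PLK1 lower at an unadjusted p under 0.05, 7.89% of the members against 9.84% of all tested genes. In K against L, 6 members were higher and 0 lower, 15.8% against 8.34%. They were CDC6, RRM2, CCNE2, E2F1, CDK1 and CENPE. E2F1 had the largest of these differences, 1.01 (SE 0.41, adjusted p = 0.533), at means of 4.34 and 1.61 TPM, near the limit for testing. The smallest adjusted p of the members in K against L was 0.4997, for RRM2.

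**Figure D4:**
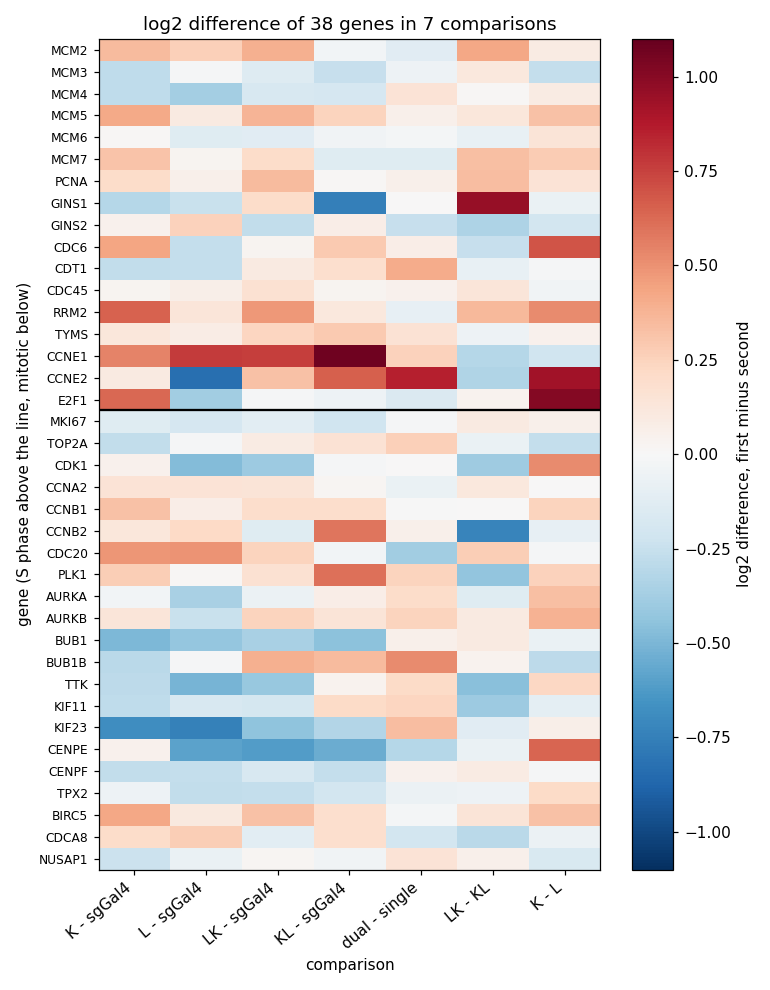
Log2(TPM + 1) difference of the 38 tested genes (rows, S phase above the line and mitotic below) in 7 comparisons (columns, first group minus second), with red for higher and blue for lower in the first. CCNE1 is red and BUB1 blue in each of the 4 comparisons with sgGal4, which share their controls, CCNE2 is at −0.83 in L, and no row passed the adjusted threshold.

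The rest of the pathway was read from lists of genes outside the 40. Of 43 tested genes of the replication machinery, 3 were called higher and 0 lower in the 4 sgHS2 groups together, with a list median of 0.10 beside 0.03 for all tested genes, of which 3.26% were called in either direction. GINS4, a further subunit of the GINS complex, was at 9.14 and 18.0 TPM with sgGal4 and between 22.3 and 44.1 TPM in the sgHS2 libraries (1.07, SE 0.24, adjusted p = 0.0304). POLE2, a subunit of DNA polymerase epsilon, was at 25.2 and 28.9 TPM with sgGal4 and between 37.2 and 58.9 TPM in the others (0.77, SE 0.18, adjusted p = 0.0369). POLE3, another subunit of that polymerase, which is also found in a chromatin remodelling complex, was at 40.5 and 56.0 TPM with sgGal4 and between 63.4 and 106.5 TPM in the others (0.82, SE 0.18, adjusted p = 0.0220). For each of the 3 genes all sgHS2 libraries were above both control libraries, as for 6.53% of all tested genes. GINS4 was also called in K against sgGal4 (1.43, SE 0.31, adjusted p = 0.0367).

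These 3 calls rested in part on 1 library. Without sgGal4 replicate 1, the library with the highest mitochondrial share, GINS4 was at 0.62 (adjusted p = 0.353), POLE2 at 0.67 (adjusted p = 0.256) and POLE3 at 0.59 (adjusted p = 0.261). POLE3 also lost its call without LK replicate 1 (adjusted p = 0.0508). Leaving out K replicate 2, L replicate 2, LK replicate 1 or 2, or KL replicate 2 gave GINS4 adjusted p-values between 0.0518 and 0.0586. POLE2 stood between 0.0536 and 0.0853 without sgGal4 replicate 2, either K or L library, LK replicate 2 or KL replicate 1. The GINS4 call in K against sgGal4 was lost without sgGal4 replicate 1 and without any 1 of the K, LK and KL libraries (adjusted p between 0.0505 and 0.225). All 4 calls also ended without the filter on low values and without the mean-variance trend.

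Of 67 tested genes of the mitotic apparatus outside the members, 0 were called by limma in the 4 sgHS2 groups together, with a median of −0.03. At an unadjusted p under 0.05, 5 were higher and 7 lower, 17.9% of the list against 17.1% of all tested genes. Of the 19 regulators of the E2F, RB and DREAM system, 0 were called there by limma, with 3 higher and 1 lower at an unadjusted p under 0.05 (21.1% against 17.1% of all tested genes). B-MYB (MYBL2), which activates mitotic genes, was at 25.4 and 34.6 TPM with sgGal4 and between 37.1 and 46.7 TPM in the other libraries (0.48, SE 0.17, adjusted p = 0.155). FOXM1 was at 18.4 and 21.5 TPM with sgGal4 and between 21.0 and 31.8 TPM in the others (0.31, adjusted p = 0.477). The retinoblastoma gene RB1 (0.31, adjusted p = 0.594) and its relative RBL1 (0.26, adjusted p = 0.712) were not called.

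Of the 12 tested CDK inhibitors and genes of cell cycle exit, 2 were called lower and 0 higher by limma in the 4 sgHS2 groups together. Of all tested genes 3.26% were called there in either direction. At an unadjusted p under 0.05, 6 of the 12 were lower and 0 higher, 50% against 17.1% of all tested genes. In 5 of the 12 every sgHS2 library was below both control libraries, 41.7% against 5.29% of all tested genes. Of the 12, 2 were above 0 (16.7%, against 53.6% of all tested genes), and the median was −0.53 beside 0.03 for all tested genes. CDKN1A (p21, chr6:36644237-36655114 in hg19) was at 8.52 and 10.9 TPM with sgGal4, 1.00 and 0.60 in K, 2.05 and 1.91 in L, 1.04 and 2.27 in LK, and 1.59 and 3.57 in KL. All 8 sgHS2 libraries were below both control libraries. The difference was −2.02 (SE 0.35, adjusted p = 0.00568) over the 4 groups, −2.58 (adjusted p = 0.0110) for K and −2.05 (adjusted p = 0.0298) for LK, whereas L (−1.84, adjusted p = 0.0732) and KL (−1.63, adjusted p = 0.0885) did not pass the threshold. GADD45A, a growth arrest and DNA damage gene, was at 98.2 and 89.4 TPM with sgGal4, 43.3 and 52.3 in K, 62.1 and 61.6 in L, 55.5 and 37.6 in LK, and 51.2 and 49.0 in KL. It fell by 0.87 over the 4 groups (SE 0.17, adjusted p = 0.0124), by 0.96 in K (adjusted p = 0.0391) and by 1.02 in LK (adjusted p = 0.0259). L (−0.59, adjusted p = 0.241) and KL (−0.89, adjusted p = 0.0585) did not pass.

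These calls were not kept in every alternative. Leaving out sgGal4 replicate 1 moved the CDKN1A difference over the 4 groups from −2.02 to −2.19, and leaving out sgGal4 replicate 2 moved it to −1.86. The call of CDKN1A was lost in both fits, which hold 1 control library. GADD45A lost its call without sgGal4 replicate 1 (−0.80, adjusted p = 0.144). In K and in LK, leaving out either library of the group or of the control also ended the call of CDKN1A (adjusted p between 0.0503 and 0.254) and of GADD45A (adjusted p between 0.0525 and 0.319). The call of CDKN1A ended in K without the filter on low values (adjusted p = 0.0575), and in LK also with a pseudocount of 0.1, without the mean-variance trend and with only the compared groups in the fit (adjusted p between 0.0659 and 0.0811). The calls of GADD45A in K and LK ended without the filter, without the trend and with only the compared groups (adjusted p between 0.0760 and 0.163). For GADD45A in K, leaving out any 1 of the L or KL libraries did so too (adjusted p between 0.0575 and 0.0584). The direction was kept in each of these fits. Without the mean-variance trend GADD45A over the 4 groups had an adjusted p of 0.0885.

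The other inhibitors were not called. CDKN1B (p27) was at 11.6 and 11.6 TPM with sgGal4 and between 7.63 and 16.4 TPM in the others (−0.19, adjusted p = 0.762). CDKN1C (p57) ranged from 0.95 to 5.93 TPM (−0.11, adjusted p = 0.926) and CDKN2C (p18) from 6.69 to 14.3 TPM (0.19, adjusted p = 0.750). CDKN2A and CDKN2B were listed at 0 in all 10 libraries, a locus known to be deleted in K562.

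Of the 9 tested G1 cyclins and kinases, 0 were called in the 4 sgHS2 groups together by limma, with 2 higher at an unadjusted p under 0.05 (22.2% against 17.1% of all tested genes). Of the 9, CCND1 (cyclin D1), was called lower in LK than in KL, where 0.385% of all tested genes were called. CCND1 was at 10.5 and 9.22 TPM with sgGal4, 6.52 and 4.78 in K, 5.98 and 6.82 in L, 1.63 and 7.18 in LK, and 25.9 and 19.9 in KL. Its difference between LK and KL was −2.35 (SE 0.45, adjusted p = 0.0392). Without LK replicate 1 it was −1.53 (adjusted p = 0.337), and the call was kept in 4 of 18 alternatives. MYC was between 195 and 262 TPM (−0.04, adjusted p = 0.922), CCND2 between 26.9 and 40.8 TPM (0.03, adjusted p = 0.956) and CCND3 between 75.4 and 133 TPM (−0.26, adjusted p = 0.448).

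**Figure D5:**
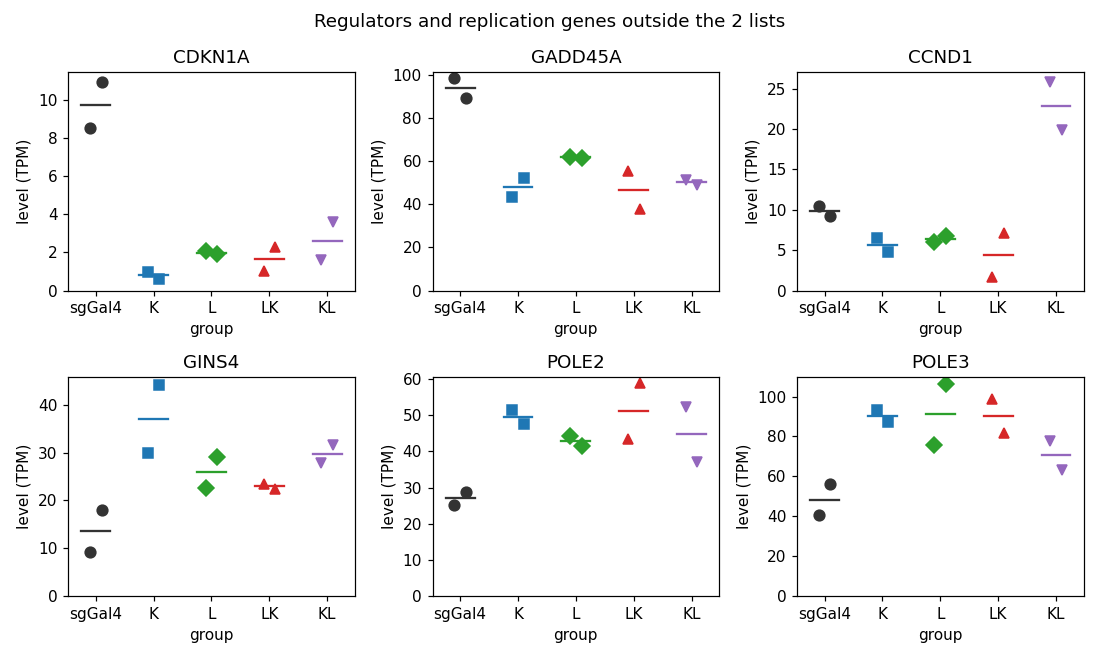
Level in TPM of 6 genes outside both lists that passed the threshold in at least 1 comparison, by group, with a point for each library and a line at the group mean. CDKN1A and GADD45A are highest in the 2 sgGal4 libraries, GINS4, POLE2 and POLE3 are lowest there, and CCND1 is highest in the 2 KL libraries.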

How the data were processed

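Gene expression was measured by RNA-seq in 10 K562 libraries, 2 in each of 5 groups given by the sample titles. The authors aligned reads to hg19 with STAR 2.5.2b, discarding reads with several locations, and deposited 1 RSEM value in TPM per gene and library. The study's methods name the Ovation system, whereas the labels name a directional kit with poly(A) selection. TPM values hold no read number, so depth is unknown and no counting interval was given. The paper names DESeq2, which needs counts and was not run here.

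The deposited TPM values were transformed to log2(TPM + 1), and genes averaging 1 TPM or more (10127) were kept. One limma fit (version 3.58.1, R 4.3.3) of all 10 libraries left 5 residual degrees of freedom. Variances were moderated with a mean-variance trend, p-values were adjusted by Benjamini-Hochberg over all tested genes in each of 8 comparisons, and an adjusted p under 0.05 was a call. A log2 difference on this scale understates the change of low genes. The fit was tested on simulated data. Changes were put on genes drawn from those above about 10 TPM, and the simulated spread was modelled from all tested genes. For K against sgGal4 it called 2% of genes changed by 0.5 on the log2 scale, 21% of those changed by 1 and 80% of those changed by 2. For all sgHS2 groups against sgGal4 these shares were 4%, 39% and 94%, so most changes of 1 or less were missed. The members, lists and comparisons were chosen with earlier results of these data known. Values in every library were given for the 3 highest and 2 lowest genes of the S phase and of the mitotic list. The same holds for the 2 of each with the largest difference in all sgHS2 groups against sgGal4. Called genes of the other lists were given by library or as ranges, as were MYC, the D cyclins, CDK inhibitors, FOXM1 and B-MYB. RB1 and RBL1 were given as differences only.

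Gene positions came from GENCODE release 44 mapped to hg19, and promoter windows from RefSeq (GRCh38.p14), searched by Python 3.11.15 with pandas 2.3.3. Figures were drawn with matplotlib 3.10.9. The alternatives were a pseudocount of 0.1, no filter, a filter at 10 TPM, median-of-ratios size factors, quantile normalization, removal of the 13 mitochondrial genes, no trend, a block for the replicate number, a fit restricted to the compared groups, and leaving out each library.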

Additional observations from a re-analysis of the deposited data

Results flagged for a closer look

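The difference of CCND1 between the LK and KL groups was −2.35 on the log2(TPM + 1) scale (limma, adjusted p = 0.0392). It was singled out because it passed the threshold in a comparison between sgHS2 groups. Being picked by its call, it is no separate test of that comparison. CCND1 was lower than the control in LK (−1.22, adjusted p = 0.219) and higher in KL (1.13, adjusted p = 0.253), and neither passed the threshold alone. The 2 LK libraries were at 1.63 and 7.18 TPM and the 2 KL libraries at 25.9 and 19.9 TPM, with the controls between them at 10.5 and 9.22 TPM. Over 18 alternatives the difference lay between −3.17 and −1.53 and the adjusted p between 0.0118 and 0.337. The call was kept in 4 of them. Without LK replicate 1 the adjusted p was 0.337, and without KL replicate 1 or 2 it was 0.226 or 0.216. No other gene of the cell cycle lists was called in this comparison, in K against L or in dual against single effectors. With 2 libraries in a group, no test for a single library far from its group was made.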

How the results depend on the processing

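The count of members called was 0 in 148 of 151 alternative fits over the 8 comparisons and 1 in the rest. A count of 0 in a design of this size does not show that differences of the members' size are absent. RRM2 was called in K against sgGal4 with a filter at 10 TPM (0.65, adjusted p = 0.0406), where fewer genes were tested. BUB1 was called in all sgHS2 groups against sgGal4 with median-of-ratios size factors and after removal of the mitochondrial genes. With the replicate block, the count was 0 in each of the 8 comparisons. The pairing check compared the difference of replicate 1 from replicate 2 between groups, over all tested genes. It gave correlations between −0.0213 and 0.0229 over 10 pairs of groups, so no common pairing was seen over all genes. A pairing that touched only some genes was not tested. Under the block GADD45A in K (adjusted p = 0.0532), POLE2 in all sgHS2 groups (adjusted p = 0.0541) and CCND1 (adjusted p = 0.0512) passed the threshold no longer. The mitotic median of LK against KL lay between −0.21 (without LK replicate 1) and 0.068 (without LK replicate 2) as libraries were left out. No called difference reversed. CDKN1A over all sgHS2 groups kept its call in 15 of 17 alternatives, GADD45A in 16 of 18, POLE3 in 14 of 18, GINS4 in 10 of 18 and POLE2 in 7 of 18. The cause of the losses was not tested.

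Removing the mitochondrial genes moved the tested genes by a median of −0.12 in K, −0.12 in LK and −0.10 in KL and in all sgHS2 groups. In the last, genes called higher and lower numbered 180 and 150, against 135 and 240 after removal and 179 and 196 with size factors. For K they were 89 and 75, against 68 and 125 after removal and 79 and 101 with quantile normalization, for LK 119 and 84, against 83 and 142, 91 and 110, and 102 and 113 with size factors, and for KL 64 and 74, against 68 and 135. With 2 libraries a group and no read counts, small changes of low genes such as E2F1 could not be resolved.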
